A study of Mus musculus with 27 samples.

Results

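A set of 10 transcription factors of the striatal neuron lineage was followed through RNA-seq gene counts of mouse frontal cortex and striatum: Foxp1, Foxp2, Bcl11b, Isl1, Ebf1, Meis2, Rarb, Dlx5, Dlx6 and Six3. They were chosen by name, as 10 of the 52636 gene identifiers in the count tables, for their place in striatal lineage and identity and not for a measured value. Earlier results of these data were known when they were chosen. All 10 were matched by Ensembl identifier and had counts in all 15 striatal libraries.

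The mice carried a homozygous deletion of a 4.9 kb stretch between H19 and Igf2 that holds an Igf2 enhancer (Igf2enh-/-), or no deletion (wild type, +/+). The deleted stretch lies at chr7:149796331-149801250 of mm9, where the mutant allele keeps 1 loxP site. The drug selection marker used in targeting had been taken out with Cre under the Hprt promoter. All mice were adults of about 2.5 months on the 129S1 background, with no treatment named, and the deletion was made in the germ line and so is not limited to a brain cell type. Frontal cortex gave 6 wild-type and 6 Igf2enh-/- libraries with 3 of each sex per genotype, and striatum gave 7 wild-type libraries (3 female, 4 male) and 8 Igf2enh-/- libraries (4 of each sex). Which cortical and striatal libraries shared a mouse is not in the labels, so libraries were treated as independent. Within a region the study gives as many mice as there are libraries. The p-values measure the spread between these libraries.

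Medium spiny neurons, the GABAergic projection cells that make up most of the striatum, arise in the lateral ganglionic eminence of the embryo. Distal-less homeobox genes act early in that lineage, and a later set of factors keeps the mature neurons apart from each other and from cortical neurons. Adult medium spiny neurons send their axons along a direct pathway, marked by the dopamine receptor Drd1, or an indirect pathway, marked by Drd2.

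Each library held between 23686945 and 33926904 counts. The sex genes matched the labels, and no pair of libraries was identical. Levels are CPM, the counts of a gene scaled to a common library total, after trimmed-mean (TMM) scaling. Igf2, the gene next to the deletion, was measured in every library. In cortex it was at 52.1 to 107.6 CPM in wild type (median 71.3) and 88.5 to 173.3 CPM in Igf2enh-/- (median 119.4). In striatum it was at 33.8 to 44.0 CPM (median 36.9) and 46.0 to 258.6 CPM (median 51.6). A list of 8 meningeal fibroblast genes, Igf2 among them, summed to 95.9 to 215.9 CPM in wild-type cortex and 155.8 to 297.7 CPM in Igf2enh-/- cortex. Its sum was 310.9 CPM in striatal library 15 and 52.0 to 88.3 CPM in the other 14 striatal libraries. The part of meningeal tissue in the Igf2 levels was not tested. Wild-type striatal library 20, from a male, stood apart. It had the lowest level of all 10 factors among the striatal libraries and the highest summed level of 10 cortical projection neuron markers, at 1367 CPM where the other 14 lay between 162.7 and 1029 CPM and cortex between 2431 and 2759 CPM. In striatal library 15 (Igf2enh-/-), 8 choroid plexus genes summed to 3326 CPM, where the other 14 striatal libraries had sums of 28.5 to 147.1 CPM. Results that rest on library 20 are given with and without it.

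The region labels were met by their markers. All 12 medium spiny neuron markers were higher in wild-type striatum than in wild-type cortex, and all 10 cortical projection neuron markers were lower. The 5 direct pathway and 5 indirect pathway markers tested were all higher as well. Of these, Drd1, Tac1, Pdyn, Drd2, Adora2a, Penk and Gpr6 were already among the 12 medium spiny neuron markers. Over all 14909 genes tested, 5061 were higher in wild-type striatum and 5007 lower. In bulk tissue, fewer cells of a type and less RNA per cell cannot be told apart.

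Start sites of 7 of the 10 factors were matched to a RefSeq promoter table (GRCm38.p6), with 10 promoters in all. There was no entry for Foxp2, Dlx5 or Dlx6. The upstream 250 bases are printed for Rarb, which had the widest region difference of the factors seen in every cortical library, and for Six3 and Isl1, which were at or near 0 counts in cortex. Each is read 5′ to 3′ along the gene's strand. Capitals mark a match to a motif of one of these factor families. The Rarb stretch is chr14:16575477-16575726 (minus strand) and the Six3 stretch chr17:85620584-85620833 (plus strand), each at a start inside the gene's span. The Isl1 stretch is chr13:116309689-116309938 (minus strand).
Rarb: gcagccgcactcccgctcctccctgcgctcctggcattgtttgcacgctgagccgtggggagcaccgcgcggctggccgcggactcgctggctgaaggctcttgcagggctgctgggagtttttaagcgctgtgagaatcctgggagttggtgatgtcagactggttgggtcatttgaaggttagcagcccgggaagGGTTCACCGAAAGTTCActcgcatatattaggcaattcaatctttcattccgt
Six3: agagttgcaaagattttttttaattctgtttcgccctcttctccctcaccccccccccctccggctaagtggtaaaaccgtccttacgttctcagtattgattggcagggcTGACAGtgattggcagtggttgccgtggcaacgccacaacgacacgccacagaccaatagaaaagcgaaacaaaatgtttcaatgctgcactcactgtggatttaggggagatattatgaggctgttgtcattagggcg
Isl1: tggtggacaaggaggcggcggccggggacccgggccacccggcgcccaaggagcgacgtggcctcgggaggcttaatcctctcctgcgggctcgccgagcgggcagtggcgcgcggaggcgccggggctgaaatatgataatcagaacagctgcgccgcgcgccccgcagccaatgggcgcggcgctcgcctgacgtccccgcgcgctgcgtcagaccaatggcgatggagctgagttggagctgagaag

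In the Rarb promoter the capitals are a direct repeat of retinoic acid receptor half-sites, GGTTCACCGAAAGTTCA, which covers the bases from 53 to 37 before the start. The search was for the retinoic acid response element made of direct repeats with 5 bases between them, on both strands, and 0.0883% of the 32851 upstream windows of the table held such a repeat. Rarb encodes a retinoic acid receptor, and this repeat is a textbook element through which the receptors act on their own gene. The Six3 capitals are TGACAG, the core bound by MEIS factors, which 15.9% of all windows held. The homeodomain core TAATTA was found in 1 of the 10 promoters of the factors, an internal start of Foxp1, and in 4.84% of all windows. That start also held a MEIS core on the other strand. The forkhead motif TGTTTAC was in none of the 10 and in 3.17% of all windows. None of these motifs overlapped another in the 10 promoters. The windows of Isl1 and Six3 differed in composition, with 71.2% and 48.8% G or C against a median of 52.4% over all windows.

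The first comparison asked how far the factors separate striatum from frontal cortex. All 10 were higher in striatum in wild type and again in Igf2enh-/-, and for each of them every striatal library lay above every cortical library of its genotype. How many of all genes tested separate in this way was not counted. By edgeR's quasi-likelihood test with Benjamini-Hochberg adjustment, 33.9% of the 14909 genes tested were higher in wild-type striatum and 34.2% in Igf2enh-/- striatum at an adjusted p under 0.05. The median log2 fold change of the 10 factors was 2.77 in both genotypes, beside 0.01 in wild type over all genes tested. The factors belong to the lineage by the way they were picked, so their direction is a description of these libraries.

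**Figure D1:**
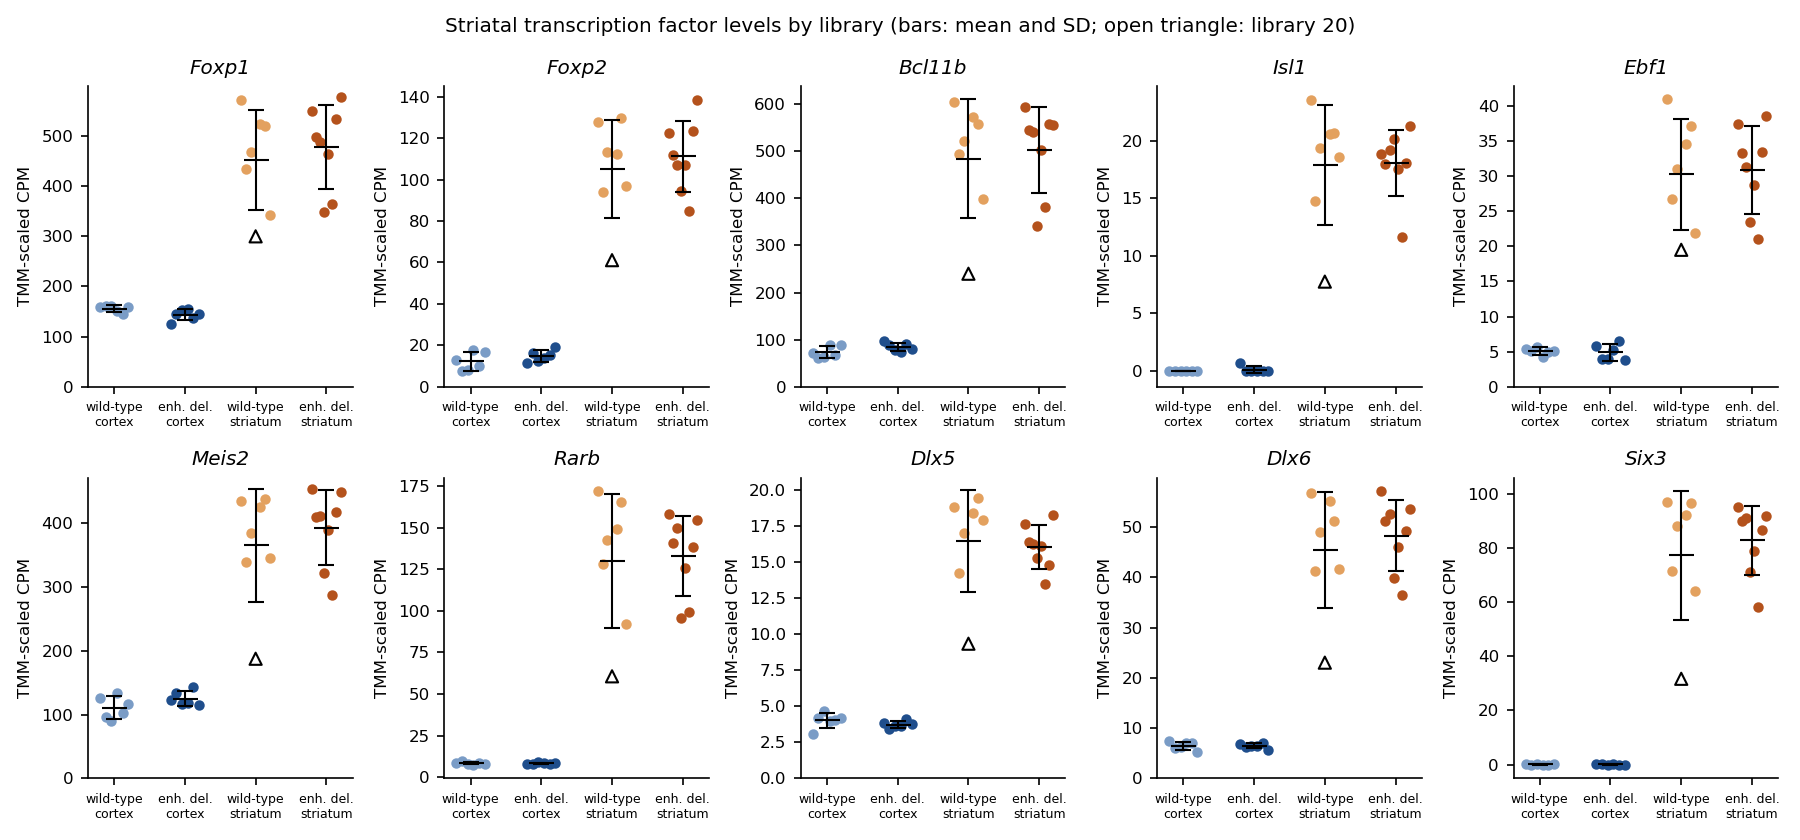
Level of each factor (y axis, TMM-scaled CPM, starting at or near 0) in every library of the 4 groups, with bars for the mean and SD, and an open triangle for wild-type striatal library 20. In each panel the cortical points lie below every striatal point of their genotype, and library 20 is the lowest striatal point.

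The retinoid receptor gene Rarb (chr14:16430839-17082331, GRCm38.p6) had the widest difference among the factors counted in every cortical library. Its level was 7.70 to 9.81 CPM in wild-type cortex (median 8.38) and 60.7 to 171.8 CPM in wild-type striatum (median 142.5). The lowest striatal library, library 20, was still above all cortical ones. The difference was 3.93 ± 0.18 (log2 fold change ± SE, edgeR quasi-likelihood adjusted p = 4.9e-15), and 4.05 ± 0.14 without library 20.

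Six3 and Isl1, homeobox genes of the striatal and forebrain lineage, were the factors nearest to absence in cortex. Six3 (chr17:85613608-85626191) had 6 counts in all in the 6 wild-type cortical libraries and 9 in the 6 Igf2enh-/- ones, and 808 to 2819 counts in each striatal library. Pooled over libraries and scaled by total count, it was 2092 times higher in wild-type striatum (exact 95% interval 961 to 5702, for counting error only) and 1482 times higher in Igf2enh-/- striatum (780.3 to 3241). Each ratio turned on 1 cortical library, left out as a choice made after seeing the data, which leaves 2 counts. Library 12 held 4 of the wild-type cortical counts, and without it the ratio was 5197 (1438 to 42915). Library 1 held 7 of the Igf2enh-/- ones, and without it the ratio was 5633 (1559 to 46521). Isl1 (chr13:116298270-116309688) marks direct pathway neurons and cholinergic interneurons. It had 0 counts in 11 of the 12 cortical libraries and 18 counts (0.72 CPM) in Igf2enh-/- cortical library 1. In striatum it was at 7.76 to 23.5 CPM (median 19.3) in wild type and 11.6 to 21.2 CPM (median 18.4) in Igf2enh-/-. With 3 counts per library standing for a count of 0, wild-type striatum was at least 159-fold higher. The same library 1 also had the lowest summed cortical marker level of the cortical libraries, 2431 CPM.

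The forkhead genes Foxp1 and Foxp2 encode repressors that can pair with each other. Foxp2 (chr6:14901349-15441977) was at 7.73 to 17.9 CPM in wild-type cortex (median 11.5) and 61.1 to 129.7 CPM in wild-type striatum (median 112.4). Foxp1 (chr6:98925342-99522746), found in both projection pathways and in cortical projection neurons, was at 144.4 to 161.8 CPM (median 159.9) and 299.9 to 570.8 CPM (median 467.4). The log2 fold change was 3.10 ± 0.20 for Foxp2 and 1.54 ± 0.12 for Foxp1, the smallest of the 10 in wild type (edgeR quasi-likelihood adjusted p = 2.0e-12 and 8.2e-11).

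Bcl11b (chr12:107910403-108004145) encodes CTIP2, a zinc finger factor of medium spiny neurons and of deep-layer cortical neurons that project out of the forebrain. It rose from 60.4 to 88.8 CPM in wild-type cortex (median 69.6) to 240.0 to 604.9 CPM in wild-type striatum (median 522.2), a log2 fold change of 2.72 ± 0.17. Ebf1 (chr11:44618100-45008096), a helix-loop-helix factor tied to direct pathway neurons, was at 4.20 to 5.72 CPM (median 5.10) against 19.5 to 40.9 CPM (median 31.0), a log2 fold change of 2.58 ± 0.18. Meis2 (chr2:115861264-116067537), a homeobox cofactor of the ganglionic eminence, was at 89.3 to 134.5 CPM (median 109.9) against 187.6 to 437.9 CPM (median 385.1), a log2 fold change of 1.72 ± 0.15. Adjusted p-values of these 3 by edgeR's quasi-likelihood test ran from 1.2e-12 to 3.9e-10. Meis2 had the narrowest gap between regions as a ratio, from its highest cortical level of 134.5 CPM to 187.6 CPM in library 20. The wild-type difference was 1.83 ± 0.11 without that library.

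Dlx5 and Dlx6 are neighbouring homeobox genes of the GABAergic lineage, transcribed towards each other on chromosome 6 with 9830 bp between their ends. Dlx6 (chr6:6863334-6867970) was at 5.24 to 7.40 CPM in wild-type cortex (median 6.65) and 23.0 to 56.7 CPM in wild-type striatum (median 49.0). Dlx5 (chr6:6877801-6882068) was at 3.07 to 4.68 CPM (median 4.12) and 9.33 to 19.5 CPM (median 17.9). The log2 fold change was 2.82 ± 0.15 for Dlx6 and 2.03 ± 0.13 for Dlx5 (edgeR quasi-likelihood adjusted p = 7.1e-14 and 1.4e-12). The noncoding gene Dlx6os1 spans Dlx6 on the opposite strand. It was at 16.0 to 19.6 CPM in wild-type cortex and 25.6 to 47.4 CPM in wild-type striatum, a log2 fold change of 1.25 ± 0.12. Where the counting did not use strand, reads of Dlx6 and Dlx6os1 cannot be told apart, and the same holds for Six3, which overlaps Six3os1 over 4789 bp. Dlx6os2 and Six3os1 were not analysed here.

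**Figure D2:**
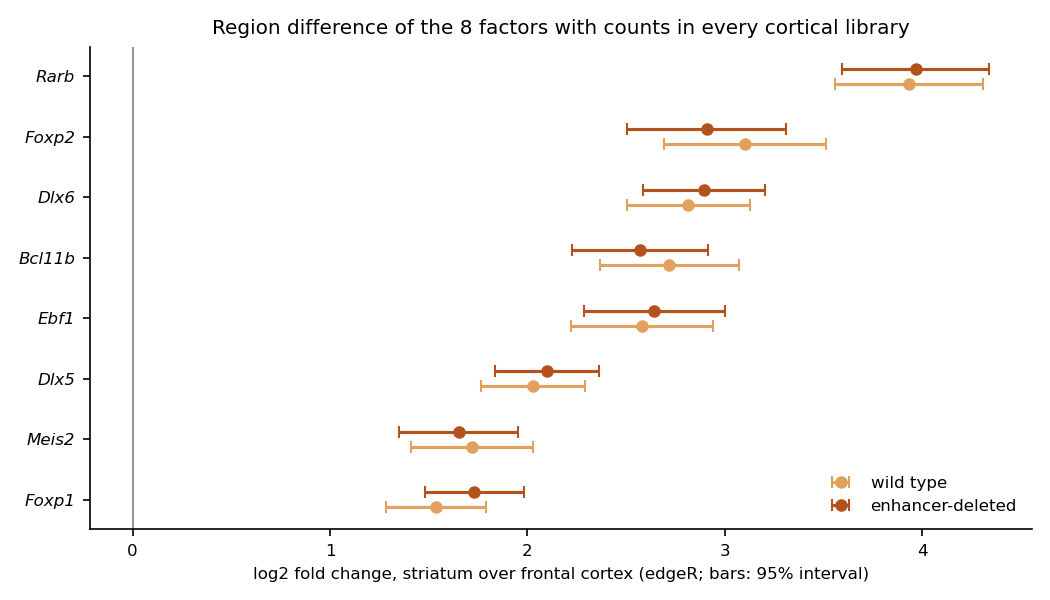
Log2 fold change of striatum over frontal cortex (x axis) for the 8 factors with counts in every cortical library, in wild type and in Igf2enh-/-; points are edgeR estimates and bars 95% intervals. All intervals lie above 0. Estimates run from 1.54 (Foxp1) to 3.93 (Rarb) in wild type and from 1.65 (Meis2) to 3.97 (Rarb) in Igf2enh-/-, and Six3 and Isl1 are left out because their cortical counts are at or near 0.

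In the Igf2enh-/- libraries Rarb again had the widest difference of the factors counted in every cortical library. The log2 fold change was 3.97 ± 0.18 for Rarb, 2.91 ± 0.19 for Foxp2, 2.90 ± 0.15 for Dlx6, 2.64 ± 0.17 for Ebf1 and 2.57 ± 0.17 for Bcl11b. It was 2.10 ± 0.13 for Dlx5, 1.73 ± 0.12 for Foxp1 and 1.65 ± 0.15 for Meis2. The difference between the genotypes in these region effects was tested as an interaction. It passed for none of the 10 factors and for 0% of the 14909 genes, with 433 genes at an unadjusted p under 0.05 by edgeR's quasi-likelihood test. Among the 8 factors counted in every cortical library, interaction estimates ran from -0.19 (Foxp2, 95% interval -0.73 to 0.34) to 0.19 (Foxp1, -0.15 to 0.53). For Isl1 the estimate was -4.69 (95% interval -9.27 to -0.11, edgeR quasi-likelihood adjusted p = 1.00), and without library 1, which held the 18 counts, it was -0.010.

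Compared per kilobase of exon, the factors differed in level within wild-type striatum. Bcl11b was highest at 59.7 ± 15.6 CPM per kb (SD, n = 7), followed by Rarb at 39.4 ± 12.2, Foxp1 at 37.8 ± 8.3 and Meis2 at 30.8 ± 7.4. Each of these overlapped the next within 1 SD, and so did Meis2 and Dlx6, which was at 19.1 ± 4.9. The factors were measured in the same 7 libraries and varied together in them, so overlap of SDs does not show that their order is unsettled. Bcl11b was at 29.6 CPM per kb in library 20, where Rarb was at 18.4, and in library 14 they were at 74.6 and 52.2. Dlx5, at 11.6 ± 2.5 CPM per kb, was separate from Dlx6 by this measure. Six3 at 8.8 ± 2.7, Foxp2 at 7.8 ± 1.8 and Isl1 at 7.1 ± 2.1 overlapped with one another, and Ebf1 was lowest at 3.1 ± 0.81. In wild-type cortex Foxp1 led at 13.1 ± 0.59 CPM per kb (SD, n = 6), ahead of Meis2 at 9.3 ± 1.5 and Bcl11b at 9.0 ± 1.6. Rarb, second in striatum, was sixth of the 10 in cortex at 2.6 ± 0.22 CPM per kb. Exon lengths came from an older annotation, so these levels hold for its gene models.

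Related factors of the striatal lineage did not all move with the 10. Of 28 listed, 25 were tested, and in wild type 13 were higher in striatum and 7 lower. Of all 14909 genes tested, 5061 were higher and 5007 lower. The median log2 fold change of the 25 was 0.34, beside 0.01 over all genes tested. The widest differences were those of Nkx2-1, a factor of ventral interneurons (log2 fold change 6.31 ± 0.33, from 0.04 to 0.15 CPM in wild-type cortex), and of Rxrg, a partner of the retinoic acid receptors (5.33 ± 0.26). Zfp503 followed at 3.88 ± 0.18, Pbx3 at 3.38 ± 0.24 and Meis1 at 3.36 ± 0.22. These 5 had edgeR quasi-likelihood adjusted p-values of at most 1.2e-11. Families were split. Rara, the paralog of Rarb, was lower in striatum (-1.20 ± 0.17, adjusted p = 1.3e-06), Foxp4 was lower than in cortex by a small margin (-0.28 ± 0.09, adjusted p = 0.0065), and Dlx1 was lower (-0.73 ± 0.25, adjusted p = 0.012), all by the same edgeR test. Dlx2 was at a log2 difference of 0.12 (95% interval -0.19 to 0.43). These 4 were picked after their values were seen, as relatives of Rarb, Foxp1 and Dlx5. In Igf2enh-/- 14 of the 25 were higher in striatum and 6 lower, beside 5098 and 5169 of the 14909 genes. None of the 24 tested within each region was called for genotype, where 0.38% of genes in cortex and 0.036% in striatum were. Lhx8 was not analysed here.

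The second comparison asked whether loss of the enhancer altered the factors within a region. In striatum none of the 10 passed at an adjusted p under 0.05, where 0.036% of 13875 genes did (5 genes, all lower in Igf2enh-/-, and 1395 at an unadjusted p under 0.05). Log2 fold changes of Igf2enh-/- over wild type lay between -0.04 (Dlx5, 95% interval -0.31 to 0.23) and 0.09 (Meis2, -0.23 to 0.41), with a median of 0.05 for the factors and 0.00 over all genes. The widest interval was that of Isl1, from -0.38 to 0.40 around 0.01. These intervals are not adjusted over genes, so changes of that size, and larger ones that miss the adjusted threshold, could have gone uncalled.

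The sign of these small values was not stable. Leaving out library 20 turned 8 of them, and for Rarb, Ebf1, Isl1, Bcl11b and Foxp2 leaving out some other library did so too. With library 20, 9 of the 10 estimates were above 0, and without it 1 was (Foxp1, 0.00, 95% interval -0.26 to 0.27). Six3 moved from 0.08 (95% interval -0.30 to 0.46) to -0.04 (-0.28 to 0.20), and Dlx5 from -0.04 to -0.14 (-0.30 to 0.03, edgeR quasi-likelihood adjusted p = 0.60). The mean level of Six3 in wild-type striatum was 77.3 ± 23.8 CPM (SD, n = 7) with library 20 and 84.9 ± 13.9 CPM (n = 6) without it, beside 82.9 ± 12.7 CPM (n = 8) in Igf2enh-/-. The wild-type mean of Rarb likewise moved from 129.9 ± 40.3 to 141.4 ± 28.8 CPM, beside 132.7 ± 24.1 CPM in Igf2enh-/-. All intervals held 0 in both forms, and no factor passed under either.

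**Figure D3:**
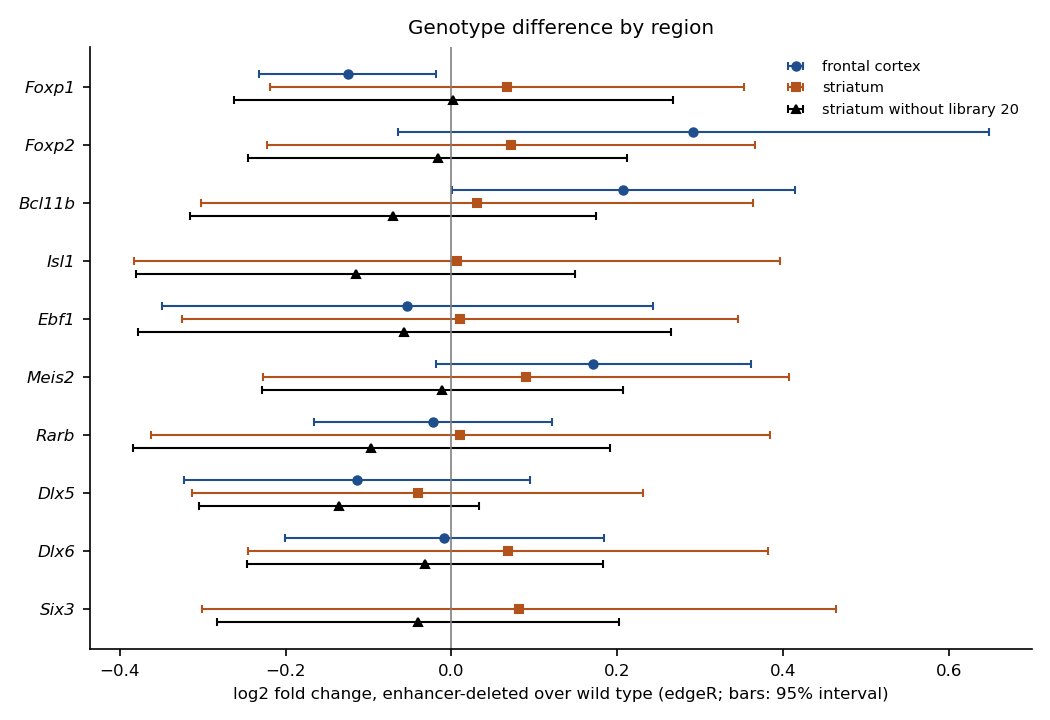
Log2 fold change of Igf2enh-/- over wild type (x axis) for each factor in frontal cortex, in striatum, and in striatum without library 20, as edgeR estimates with 95% intervals; Isl1 and Six3 have no cortical point because they fell under the filter there. In striatum all intervals cross 0, and 8 of the 10 estimates move from above to below 0 when library 20 is left out.

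In frontal cortex 8 factors were tested and none passed, where 0.38% of 13936 genes did (53 genes, with 1877 at an unadjusted p under 0.05 by edgeR's quasi-likelihood test). The median log2 fold change of the 8 was -0.02, beside 0.00 over all genes. Foxp1 was at 144.4 to 161.8 CPM in wild type (median 159.9) and 124.9 to 154.9 CPM in Igf2enh-/- (median 145.3). The groups overlapped, and the difference was -0.13 ± 0.05 on the log2 scale (95% interval -0.23 to -0.02, edgeR quasi-likelihood adjusted p = 0.29). Bcl11b was at 60.4 to 88.8 CPM in wild type (median 69.6) and 73.3 to 96.4 CPM in Igf2enh-/- (median 83.9), a log2 difference of 0.21 ± 0.10 (adjusted p = 0.37, edgeR quasi-likelihood test). Foxp2 had the largest estimate, 0.29 ± 0.17 (95% interval -0.06 to 0.65, adjusted p = 0.46), and Meis2 was at 0.17 ± 0.09 (adjusted p = 0.42). Ebf1, Rarb, Dlx5 and Dlx6 lay between -0.11 and -0.01. Isl1 and Six3 were not in this fit, which kept genes that reached 1 CPM in all 12 libraries. In a fit with no filter, Isl1 had an adjusted p of 0.049 by the edgeR test, a value that rests on library 1, since the other 11 cortical libraries had 0 counts. Six3 had a log2 difference of 0.49 (95% interval -1.30 to 2.27) there, and -1.15 (-3.40 to 1.09) without library 1.

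Sex was a term in each fit and gave no call among the factors in either region, where 0.0431% of the genes in cortex and 0.0432% in striatum passed (6 genes each). In striatum all 10 estimates of male over female were below 0, from -0.04 for Dlx5 (95% interval -0.31 to 0.23) to -0.32 for Rarb (-0.69 to 0.05, edgeR quasi-likelihood adjusted p = 0.49). Without library 20 they lay between -0.23 for Rarb (-0.51 to 0.06) and 0.04 for Dlx5. The 4 striatal libraries with the lowest summed level of the factors, numbers 20, 23, 19 and 26, all came from males, and the cortical projection neuron markers had a median log2 difference, male over female, of 0.61 with library 20 and 0.35 without it, with none of the 7 tested passing in either form. The part of those markers in the sex estimates was not tested. In cortex the log2 difference of Foxp2, male over female, was 0.44 ± 0.17 (95% interval 0.08 to 0.80, edgeR quasi-likelihood adjusted p = 0.59), and with no filter its adjusted p was 0.011.

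The factors varied together among the striatal libraries. Over the 15 libraries Pearson's r of log2(CPM + 0.5) had a median of 0.91 over the 45 pairs, from 0.71 for Foxp1 and Dlx5 to 0.99 for Meis2 and Dlx6. Without library 20 the median was 0.89, and the lowest pair was Bcl11b and Isl1 at 0.47. These points share libraries, scaling and dissections, and the values are a description. The SD of log2 level over the 15 libraries was largest for Six3 (0.42) and Rarb (0.41) and smallest for Dlx5 (0.25). Without library 20 it was largest for Ebf1 (0.30) and Rarb (0.29), while Six3 was at 0.24 and Dlx5, again the smallest, at 0.15. Set against the mean log2 level of the other 9 factors, Meis2 and Dlx6 kept the steadiest ratio, with SDs of 0.05 and 0.06. Isl1 and Dlx5 had the least steady ratios (0.19 and 0.17), and these values were 0.18 and 0.16 without library 20.

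A library's place between the regions was expressed as the share of the way from the cortical mean to the median of the other 14 striatal libraries. Library 20 reached a median of 39.9% of that way over the 10 factors, from 23.8% for Meis2 to 53.3% for Ebf1. Library 23 reached 65.2%, library 19 73.0%, library 26 74.6% and library 16 80.5%. The other 10 libraries had medians from 91.4% to 119.5%. The summed cortical projection neuron markers were higher in libraries 20, 23, 19, 26 and 16 than in the other 10. They did not follow the order of the places throughout, since from library 19 to 26 to 16 both the place and the sum rose. They were at 1367 CPM in library 20, 1029 in library 23, 939.0 in library 16, 809.7 in library 26 and 639.4 in library 19, and at 162.7 to 570.8 CPM in the other 10. The part of cortical tissue in the low factor levels was not tested. Library 20 also had the highest summed level of 6 oligodendrocyte genes, 9873 CPM, and the other 14 lay between 4539 and 8742 CPM.

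**Figure D4:**
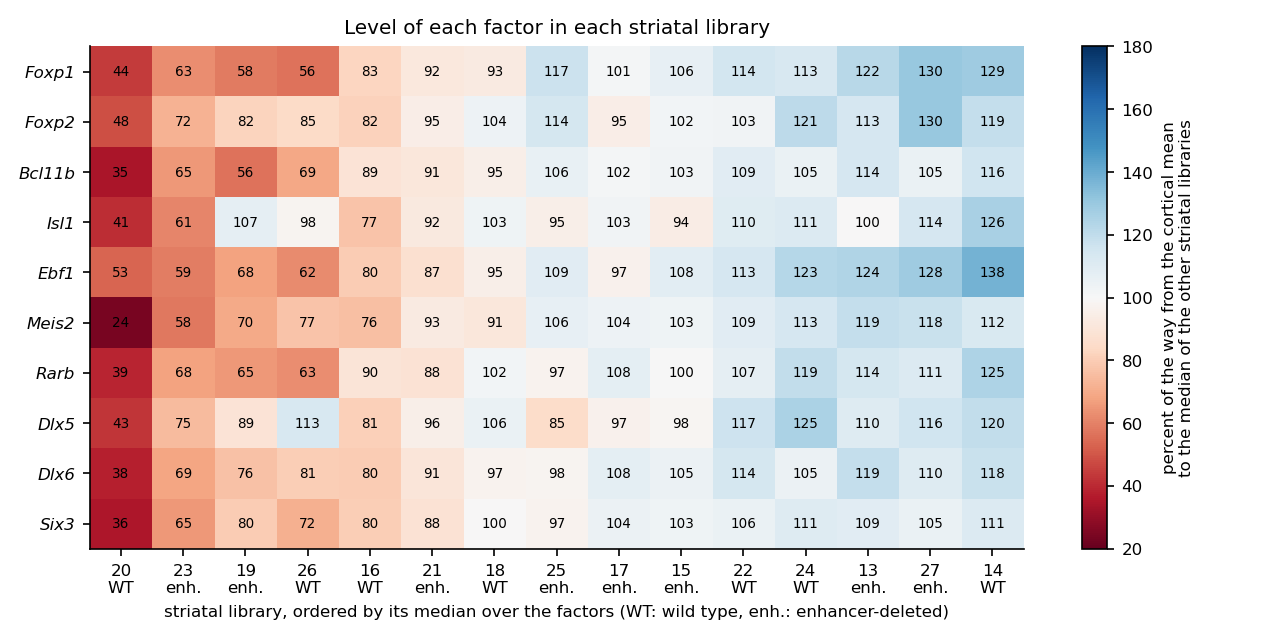
Each cell gives a factor's level in a striatal library (columns, ordered by their median) as a percent of the way from the cortical mean to the median of the other striatal libraries. Library 20 is low for every factor (24 to 53), while libraries 19 and 26 are low for Foxp1 (58 and 56) and not for Isl1 (107 and 98).

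Libraries 19 (Igf2enh-/-) and 26 (wild type), both from males, had a pattern of their own. Foxp1 was at 58.2% and 56.3% of the way in them, Bcl11b at 56.4% and 68.8% and Rarb at 65.3% and 62.8%. Isl1 stood at 107.5% and 97.7% in the same libraries, and Dlx5 at 88.9% and 112.5%. In library 20, by contrast, Isl1 and Dlx5 were low with the rest, at 40.7% and 42.5%. Libraries 19 and 26 had the highest summed levels of 6 septum and pallidum genes, 214.3 and 160.2 CPM, and the other 13 lay between 57.6 and 75.8 CPM. Of these, Zic1, Zic2, Trpc4 and Lhx6 are named, like Dlx1 and Sp8, after their values were seen. Zic1 was at 121.3 and 90.7 CPM against 14.2 to 30.1 CPM. Zic2 was at 27.6 and 20.5 CPM against 3.84 to 8.08 CPM, and Trpc4 at 26.4 and 21.9 CPM against 7.52 to 11.4 CPM. Lhx6 lay between 19.0 and 20.6 CPM in all wild-type striatal libraries, library 26 included. Both libraries also had the highest sums of 7 olfactory bulb and neuroblast genes, 119.6 and 129.1 CPM against 75.5 to 111.0 CPM. Dlx1, the relative of Dlx5 and Dlx6, was at 36.2 and 37.0 CPM against 7.66 to 23.8 CPM, and Sp8 at 9.73 and 8.42 CPM against 0.78 to 2.43 CPM. The part of those markers in the Isl1 and Dlx5 levels was not tested.

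**Figure D5:**
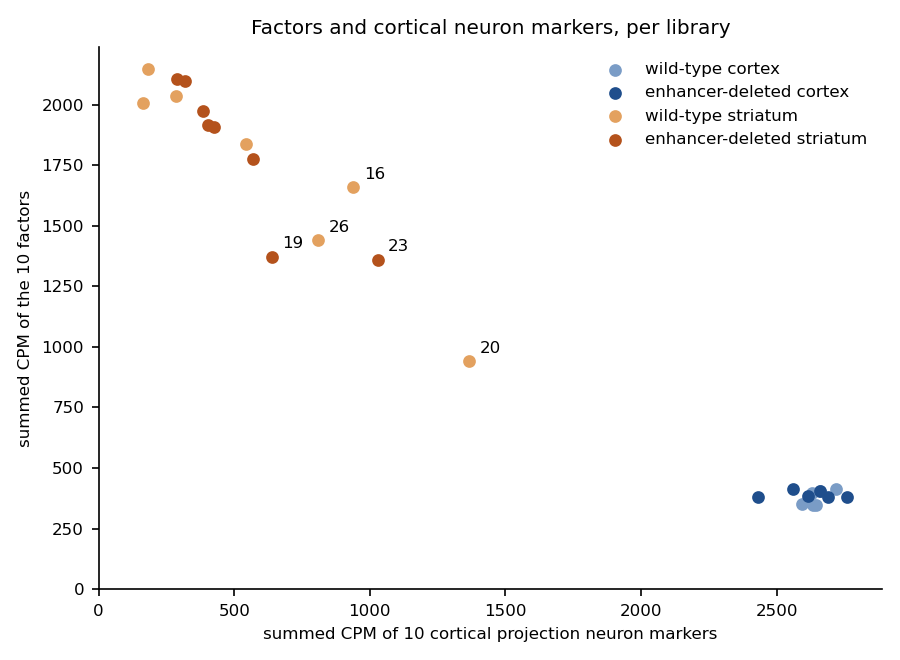
Summed CPM of the 10 factors (y axis) against summed CPM of 10 cortical projection neuron markers (x axis), 1 point per library, coloured by group. Cortical libraries lie at 2431 to 2759 on the x axis, library 20 at 1367 is the striatal point nearest to them, and library 19 lies lower on the y axis (1372) than library 16 (1658) despite a lower marker sum.

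Genes whose levels followed each factor most closely were listed, 3 per factor, by Pearson's r over the 15 striatal libraries among the 13875 genes with at least 1 CPM in all of them. Values of r ran from 0.94 to 0.99, and 5 of the 30 entries were other factors of the 10. Meis2 was followed by Gnal, Dlx6 and Fam171a1, Dlx6 by Meis2, Klhl13 and Six3, and Six3 by Pbx3, Klhl13 and Dlx6. Bcl11b was followed by Anks1b, Bcr and Adcy5, the striatal adenylyl cyclase, and Rarb by Arpp21, Elmod1 and Foxo1. Foxp1 was followed by Tgfa, Rgs20 and Syt6, Ebf1 by Foxp1, Kdm3a and Rgs20, and Foxp2 by Alcam, Lmo7 and Galnt13. Isl1 was nearest to Zfp521, an identifier with no symbol in the tables used and Sp9, and Dlx5 to Tac1, the substance P precursor of direct pathway neurons, Zfp503 and Nono. Of the 30 entries, 18 were also found without library 20, where r ran from 0.83 to 0.99. That list added Kcnd2 and St8sia3 for Foxp1, 2510009E07Rik for Foxp2, Mcub and Rbms3 for Isl1, Arpp21 for Ebf1, Plcl2 for Rarb, Wipf3 and Rap1gap for Dlx5, Ptpn5 and Gng7 for Dlx6, and Ebf1 for Six3.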

How the data were processed

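RNA-seq gene counts of 27 mouse libraries (13 wild type, 14 Igf2enh-/-) were used. The authors sequenced ribosome-depleted total RNA as single 75 bp reads over 3 flow cells, ran bcl2fastq 1.9.0 and Trim Galore 0.5.0, and aligned with STAR to GRCm38. The deposited values are raw counts per Ensembl gene, and the strand setting of the counting is not given in the sources used here. The tables held 0 columns of other series.

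Members and gene lists were chosen with earlier results of these data known. Region fits used all 27 libraries, 4 groups and sex, and genes with a mean of at least 1 CPM. Genotype and sex fits used 1 region, genotype and sex, and genes that reached 1 CPM in all its libraries. Tests were edgeR 4.0.16 quasi-likelihood tests (R 4.3.3) with TMM scaling and Benjamini-Hochberg adjustment over all genes, and 95% intervals. Fits were tested on simulated data. Alternatives used DESeq2 1.42.0, limma 3.58.1, edgeR's likelihood ratio test, other scalings and filters, no sex term, exact permutation tests, and leaving out libraries. Log2 levels of single libraries added 0.5 CPM. Counting intervals and the 3 counts that stand for a count of 0 cover counting error only. Named genes were the 10 factors, the 5 related factors of widest wild-type region difference, Dlx6os1, and the 3 genes most like each factor, and others are marked as chosen later. Human samples and protein measurements of the study were not analysed here.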

Additional observations from a re-analysis of the deposited data

Results flagged for a closer look

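There were 5 levels that stood far from the rest of their group, among 40 groups of libraries looked at (10 factors in 4 groups), by the gap to the nearest library as a share of the group's range. The cut used would mark about 1 in 20 groups by chance where values have a normal spread. Counts near 0, such as those of Isl1 and Six3 in cortex, do not have that spread. The factors of a group also share libraries, so the chance rate here is not known. Isl1 in Igf2enh-/- cortex was 0.72 CPM in library 1 and 0 in the other 5, a share of 1. Six3 in the same library was at 0.28 CPM (share 0.86), and Six3 in wild-type cortical library 12 was at 0.15 CPM, from 4 counts (share 0.74). In striatum, Meis2 was at 187.6 CPM in wild-type library 20 (share 0.61), and Isl1 at 11.6 CPM in Igf2enh-/- library 23 (share 0.62).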

How the results depend on the processing

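The 10 factors were called higher in striatum in both genotypes under each scaling and test tried and with any 1 library left out (10 to 10 called), and under each filter but that of 1 CPM in all 27 libraries, which left out Isl1 and Six3 and called the other 8, and no factor was called for the interaction (0 to 0), or, with the stated filter, for genotype or sex in either region (0 to 0 with any 1 library left out). No paired analysis was possible because the labels do not tie libraries to mice. With no filter, 1 factor (Isl1) was called for genotype in cortex, beside 459 of 33060 genes, and 1 (Foxp2) for sex, beside 185. Library 1 was then also left out, a choice made after seeing the data. That gave 3 factors (Foxp2, Bcl11b and Meis2) for genotype, beside 710 of 32740 genes, and 2 (Foxp2 and Bcl11b) for sex, beside 404. With the filter and without library 1 none was called. Without library 20, genotype estimates in striatum turned to -0.017 for Foxp2, -0.070 for Bcl11b, -0.12 for Isl1, -0.057 for Ebf1, -0.011 for Meis2, -0.10 for Rarb, -0.032 for Dlx6, -0.040 for Six3, the sex estimate of Dlx5 to 0.042, and interactions to -0.011 for Ebf1, -0.078 for Rarb, -0.026 for Dlx5, -0.026 for Dlx6. By limma-voom the interaction of Six3 was 0.017 and the cortical genotype estimate of Dlx6 0.00050. The cortical sex estimate of Ebf1 was 0.00094 with no filter and 0.062 with library 1 also left out, and Six3 then gave -1.15 for genotype and 0.44 for sex. None of these passed. The cortical genotype difference of Foxp1 had an unadjusted p of 0.035 by an exact two-sided permutation test, and its adjusted p missed the threshold in every fit across genes.

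Counts over all genes moved more. Genotype in cortex gave 53 genes, 459 with no filter, 710 with library 1 also left out, 232 by the likelihood ratio test, 247 by DESeq2, and 8 to 96 with 1 library left out (fewest without library 10, most without library 1). Genotype in striatum gave 5 genes, 10 with no filter, 13 with filterByExpr, 56 by the likelihood ratio test, 112 by DESeq2, 3 by limma-voom, 3 with no sex term, and 3 to 8 with 1 library left out. Sex in cortex gave 6 genes, 185 with no filter, 404 with library 1 also left out, 13 with filterByExpr, 28 by the likelihood ratio test, 21 by DESeq2, and 5 to 8 with 1 library left out. Sex in striatum gave 6 genes, 14, 12, 12 and 16 under no filter, filterByExpr, the likelihood ratio test and DESeq2, and 4 to 7 with 1 library left out. The causes were not tested. Region calls ranged from 9746 to 10303 genes in wild type and from 9951 to 10446 in Igf2enh-/- with 1 library left out.

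Estimates that changed sign with 1 library left out, none of them past the threshold, ranged in striatum for genotype from -0.012 to 0.13 (Foxp1), -0.017 to 0.15 (Foxp2), -0.070 to 0.10 (Bcl11b), -0.12 to 0.082 (Isl1), -0.085 to 0.093 (Ebf1), -0.011 to 0.16 (Meis2), -0.10 to 0.12 (Rarb), -0.14 to 0.0087 (Dlx5), -0.032 to 0.14 (Dlx6), -0.040 to 0.17 (Six3), and for sex from -0.081 to 0.042 (Dlx5). In cortex they ranged for genotype from -0.17 to 0.013 (Ebf1), -0.051 to 0.022 (Rarb), -0.068 to 0.033 (Dlx6), and for sex from -0.061 to 0.0025 (Foxp1), -0.12 to 0.062 (Ebf1), -0.059 to 0.0060 (Rarb), -0.0095 to 0.12 (Dlx5), -0.061 to 0.034 (Dlx6). Interactions ranged from -0.020 to 0.19 (Ebf1), -0.078 to 0.13 (Rarb), -0.026 to 0.14 (Dlx5), -0.026 to 0.15 (Dlx6), -1.58 to 1.17 (Six3). Depth limits Isl1 and Six3 in cortex, where Isl1 had 0 counts in 11 of the 12 libraries and Six3 at most 7 counts in any.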
